A study of Mus musculus with 6 samples.

Results

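The genes described here encode Lcn2 and 9 other secreted proteins of mucosal defence: Slpi, Wfdc2, Pigr, Defb1, Ltf, Lyz2, S100a8, S100a9 and Saa3. They were picked by name, as 10 of the 19296 genes measured, and each was read from its only probe set with a single gene symbol. The choice was made from results already known on these arrays, where Lcn2 had the largest fall in mutant cells. Their differences between genotypes are therefore given as a description without p-values.

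Transcript levels in ureteric bud cells of E15.5 mouse kidneys were read on 6 Affymetrix arrays, 3 of control and 3 of Dicer mutant cells. The mutant genotype was Dicerc/-; Hoxb7Cre; Rosa26YFP, with a conditional and a null Dicer allele, a Cre transgene under Hoxb7 control that is active in the ureteric bud, and a YFP reporter of Cre activity. The control genotype was wild type (control), both groups had a mixed background, and cells of both groups were sorted on YFP after trypsin treatment. Whether controls carried Hoxb7Cre and Rosa26YFP, and whether an array held 1 embryo or several, was not given in the sources used here.

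Mucosal defence proteins protect the wet surfaces of epithelia by starving, killing or binding microbes and by restraining the proteases of inflammatory cells. Many of them are switched on in epithelium through receptors for cytokines and microbial products that act on NF-kB, C/EBP and STAT3 factors, while others are made constitutively or mainly by neutrophils and macrophages. In the kidney, Lcn2 is best known as a marker of tubular injury that binds bacterial siderophores, and it was also described as a product of ureteric bud cell lines that turns mesenchyme into epithelium.

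Promoter windows from RefSeq (GRCm38.p6) were found for 9 of the 10 genes, and Defb1 had no entry. Wfdc2 had 2 windows, of which only the first listed was searched. The following 3 are shown because Lcn2 differed most between the genotypes, Wfdc2 was bright in both, and Saa3 is an acute-phase gene like Lcn2 that differed little. Each runs 5′ to 3′ on the gene's strand over the 250 bases before the transcription start. Capitals mark matches on either strand to AGGAAG (an ETS core with flanks), TTGCNNAA (C/EBP) or the NF-kB pattern of GGG, any 5 bases and CC. The windows lie at chr2:32387740-32387989 (minus strand) for Lcn2, chr2:164562465-164562714 (plus strand) for Wfdc2 and chr7:46715677-46715926 (minus strand) for Saa3.
Lcn2: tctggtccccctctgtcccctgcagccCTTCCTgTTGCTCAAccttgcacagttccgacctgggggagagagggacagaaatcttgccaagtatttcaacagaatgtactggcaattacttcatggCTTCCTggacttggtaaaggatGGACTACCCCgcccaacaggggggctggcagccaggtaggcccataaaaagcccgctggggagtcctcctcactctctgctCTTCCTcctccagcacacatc
Wfdc2: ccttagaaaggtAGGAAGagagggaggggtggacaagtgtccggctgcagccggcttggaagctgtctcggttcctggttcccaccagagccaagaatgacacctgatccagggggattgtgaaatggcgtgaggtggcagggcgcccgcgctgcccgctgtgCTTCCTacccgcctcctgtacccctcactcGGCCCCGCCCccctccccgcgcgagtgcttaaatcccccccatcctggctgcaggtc
Saa3: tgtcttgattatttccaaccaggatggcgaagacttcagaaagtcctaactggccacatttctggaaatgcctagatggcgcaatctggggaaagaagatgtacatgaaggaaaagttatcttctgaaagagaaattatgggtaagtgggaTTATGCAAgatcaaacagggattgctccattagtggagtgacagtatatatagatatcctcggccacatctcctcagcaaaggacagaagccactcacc
The Lcn2 window held 3 ETS matches, which began 223, 124 and 21 bases before the start, a C/EBP match at 216 and an NF-kB match at 102. The Wfdc2 window held 2 ETS matches, at 238 and 87, and an NF-kB match at 57, and the Saa3 window held a C/EBP match at 99. No marked match overlapped another in these windows. Of 32851 windows of the same length, 29.5% held the ETS motif, 1.22% held it 3 or more times, 9.56% held the C/EBP motif and 45.8% the NF-kB motif. Of the windows not shown, that of Ltf, whose log2 difference was 0.02, held an ETS, a C/EBP and 3 overlapping NF-kB matches. Lyz2 and S100a8 held 2 ETS matches each, and Slpi and S100a9 a C/EBP match each. Pigr held 3 NF-kB matches, of which those at 13 and 12 overlapped. All 3 motifs thus occurred in both Lcn2 and Ltf. These matches describe letters and were not tested for binding.

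Dicer1, the targeted gene, read 10.31, 10.38 and 10.25 on the control arrays and 9.80, 9.72 and 9.64 on the mutant arrays, on the log2 scale. The log2 difference was -0.59 with a standard error of 0.06 (limma, adjusted p = 0.0005). Of 16 ureteric epithelium markers, 14 were above the median of all probe sets, 9 fell (Krt19 by 1.19 and Aqp3 by 0.77 on the log2 scale), 1 rose (Wnt9b, by 1.42) and 6 did not pass, among them Cdh1 (0.03) and Epcam (-0.10). The fit across all genes called 25.8% of them at an adjusted p of 0.05, 11.8% higher and 13.9% lower in the mutant. The share was 39.6% among genes above the median of all probe sets, 7.51, and 11.9% among those below it. RMA values carry no detection call, so a value below it does not show that a transcript is absent, and a probe set above or below it is placed by signal, which depends on the probes as well as on the transcript.

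Lcn2, the siderophore-binding lipocalin, read 9.68, 8.70 and 9.35 on the control arrays and 6.50, 6.92 and 6.60 on the mutant arrays. All mutant arrays lay below all control arrays, and the closest pair was still 1.78 log2 units apart. The groups averaged 9.24 ± 0.50 and 6.67 ± 0.22 (SD, n = 3 each), a log2 difference of -2.57 with a standard error of 0.23. As a ratio of geometric means, the mutant signal was 16.8% of control, with a 95% interval of 11.7 to 24.3% from the limma fit. That interval takes no account of Lcn2 having been chosen as the largest fall on these arrays, so it is not a test. All 3 mutant values were dimmer than the overall probe set median of 7.51, and RMA compresses changes of dim genes. The share of Lcn2 transcript left in mutant cells may therefore differ from this ratio of signals. Control replicate 2 was the lowest of its group and mutant replicate 2 the highest of its own. With each array left out in turn the difference ran from -2.84 to -2.35. It was the lowest of the 19296 differences with all arrays, and the second lowest without control replicate 1 or without mutant replicate 1.

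The other 9 genes differed little between the genotypes, with log2 differences from -0.14 to 0.22 and standard errors of 0.05 to 0.11. The largest of these was a 1.16-fold difference. Of the 10 genes, 5 had the lower mean in mutant cells and 5 the higher, and the median difference was -0.05, the same to 2 decimals as the median of all genes. Lcn2 was the only one this fit called, so that 1 of 10 was called, against 25.8% of all genes. Nothing is read from this share because the genes were picked from this contrast. Some alternative fits, given below, also called Wfdc2 or Defb1. The arrays of the groups did not overlap for Lcn2, with the mutant below, and for Wfdc2, with the mutant above; these patterns held for 24.1% and 18.3% of all genes.

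**Figure D1:**
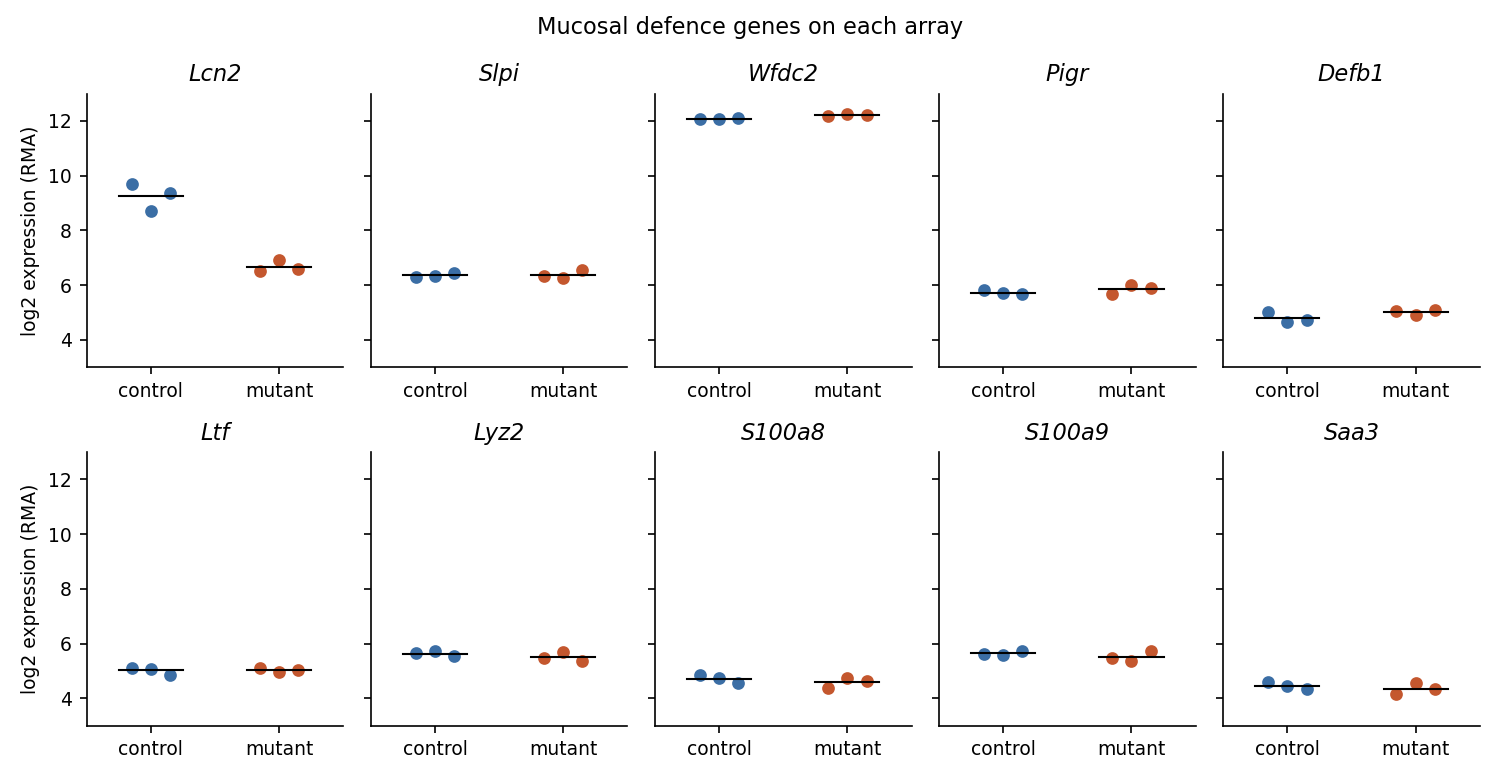
Log2 expression (RMA, vertical axis) of the 10 mucosal defence genes on the 3 control arrays (blue) and 3 Dicer mutant arrays (orange), with a line at each group mean. Lcn2 drops from 9.24 to 6.67 between the group means, while the points of the other genes stay within 0.22 log2 units of difference between means.

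**Figure D2:**
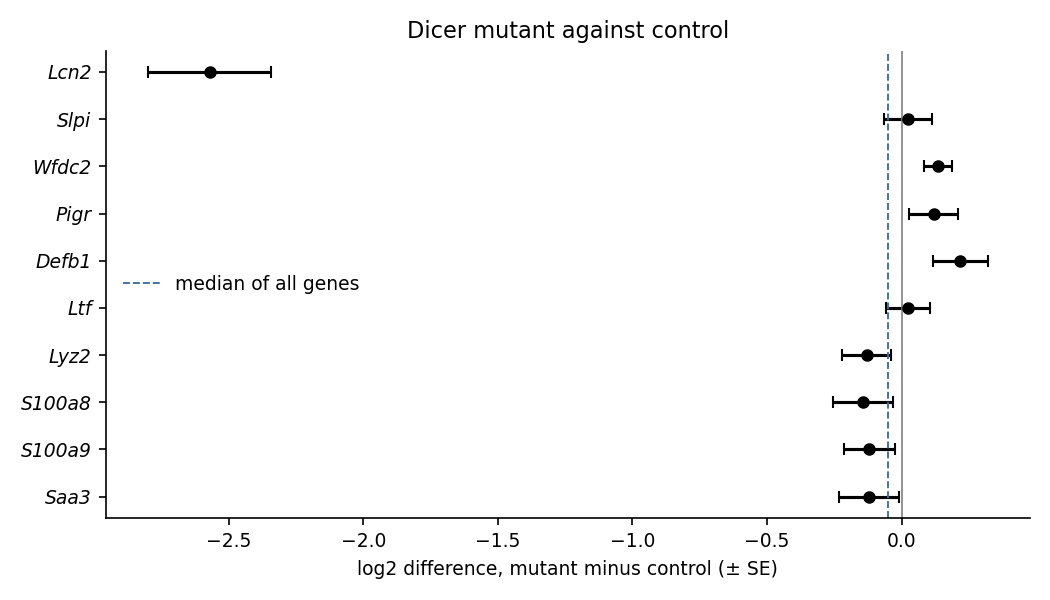
Log2 difference between Dicer mutant and control means (horizontal axis) with the standard error of the limma fit, for each of the 10 genes, beside the median of all genes (dashed). Lcn2 lies at -2.57 and the other 9 lie between -0.14 and 0.22.

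Among the protease inhibitors, Wfdc2, a WAP-domain protein secreted by many epithelia, read 12.07, 12.06 and 12.09 on the control arrays and 12.18, 12.25 and 12.20 on the mutant arrays. The groups were separated by only 0.08 log2 units at the closest pair, and the difference between means was 0.13 with a standard error of 0.05. It was the only gene of the set above the median of all probe sets on all 6 arrays. Slpi, which inhibits neutrophil elastase, read 6.28, 6.33 and 6.45 on the control arrays and 6.32, 6.26 and 6.56 on the mutant arrays. These arrays overlapped, and the difference was 0.02 with a standard error of 0.09.

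Pigr, the receptor that carries polymeric immunoglobulins across epithelia, read 5.810, 5.711 and 5.662 on the control arrays and 5.665, 5.997 and 5.876 on the mutant arrays. The groups overlapped, with mutant replicate 1 between the lowest 2 controls, and the difference was 0.12 with a standard error of 0.09. Defb1, a beta defensin made constitutively by kidney epithelium, read 5.03, 4.67 and 4.73 on the control arrays and 5.06, 4.91 and 5.10 on the mutant arrays. Here control replicate 1 lay among the mutant arrays. The difference was 0.22 with a standard error of 0.10, and without control replicate 1 it was 0.33.

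Among proteins that withhold metals, Ltf (lactoferrin), which binds iron, read 5.11, 5.08 and 4.87 on the control arrays and 5.12, 4.95 and 5.05 on the mutant arrays. S100a8 read 4.86, 4.75 and 4.55 on the control arrays and 4.37, 4.74 and 4.63 on the mutant arrays. S100a9, its partner in the zinc- and manganese-binding protein calprotectin, read 5.63, 5.58 and 5.71 on the control arrays and 5.46, 5.38 and 5.73 on the mutant arrays. The groups overlapped for all 3 genes, with differences of 0.02, -0.14 and -0.12.

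Lyz2, the lysozyme of myeloid cells that cuts bacterial cell walls, read 5.64, 5.73 and 5.54 on the control arrays and 5.47, 5.68 and 5.37 on the mutant arrays. Saa3, an acute-phase apolipoprotein, read 4.60, 4.45 and 4.34 on the control arrays and 4.15, 4.55 and 4.34 on the mutant arrays. Both overlapped between groups, with differences of -0.13 and -0.12. Of the 10 genes, 8 lay under the overall probe set median on every array, and Lcn2 lay above it on the 3 control arrays only.

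The families of these proteins were read from the same fit, with the genes above left out. Among the other 9 lipocalins named Lcn, 0 passed in limma's test, and all 9 were dimmer than that median. The 2 with the smallest p were Lcn3 and Lcn9, with log2 differences of -0.22 and -0.18 (adjusted p = 0.0539 and 0.149 in limma). The other 3 serum amyloid A genes, 38 beta defensins, 4 lysozyme genes and 2 transferrins also had 0 past the threshold, with differences between -0.20 and 0.21. The 2 with the smallest p in each, none past the threshold, were Saa2 (-0.14) and Saa4 (-0.08), Defb30 (-0.19) and Defb34 (-0.18), Lyz1 (-0.12) and Lyzl4 (0.05), and Meltf (-0.19) and Trf (0.19).

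The S100 genes, which encode small calcium-binding proteins and mostly lie near S100a8 and S100a9 on chromosome 3, were the family with the most genes lower in the mutant. Of 15 others measured, 7 fell, 0 rose and 8 did not pass, with a median log2 difference of -0.15. S100a16 fell from 10.90 ± 0.06 to 9.70 ± 0.07 (SD, n = 3 each; limma, adjusted p = 2.56e-05). S100a10, a partner of annexin A2, read 10.71, 10.64 and 10.70 on the control arrays and 9.77, 9.60 and 9.67 on the mutant arrays, a 2.00-fold fall. S100a1, S100a6 and S100a14 had log2 differences of -0.88, -0.82 and -0.59. Of the 15, 5 were above the median of all probe sets, where 39.6% of all genes passed in either direction, against 11.9% below it. Of all genes, 13.9% were called lower. S100pbp, a binding protein that shares the prefix without being an S100 protein, was counted apart and rose by 0.44.

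Of 17 other WAP four-disulfide core genes, the family of Slpi and Wfdc2, 2 fell, 1 rose and 14 did not pass. Only 1 of the 17 was above the median of all probe sets, and 11.9% of genes below it passed. Wfdc15b fell from 10.49 ± 0.05 to 9.74 ± 0.04 (SD, n = 3 each; limma, adjusted p = 0.00012), and Wfdc13 had a log2 difference of -0.30. Wfdc8 rose by 1.12 on the log2 scale, from 4.99, 5.23 and 4.78 on the control arrays to 5.98, 6.40 and 5.98 on the mutant arrays, while staying under the overall probe set median.

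**Figure D3:**
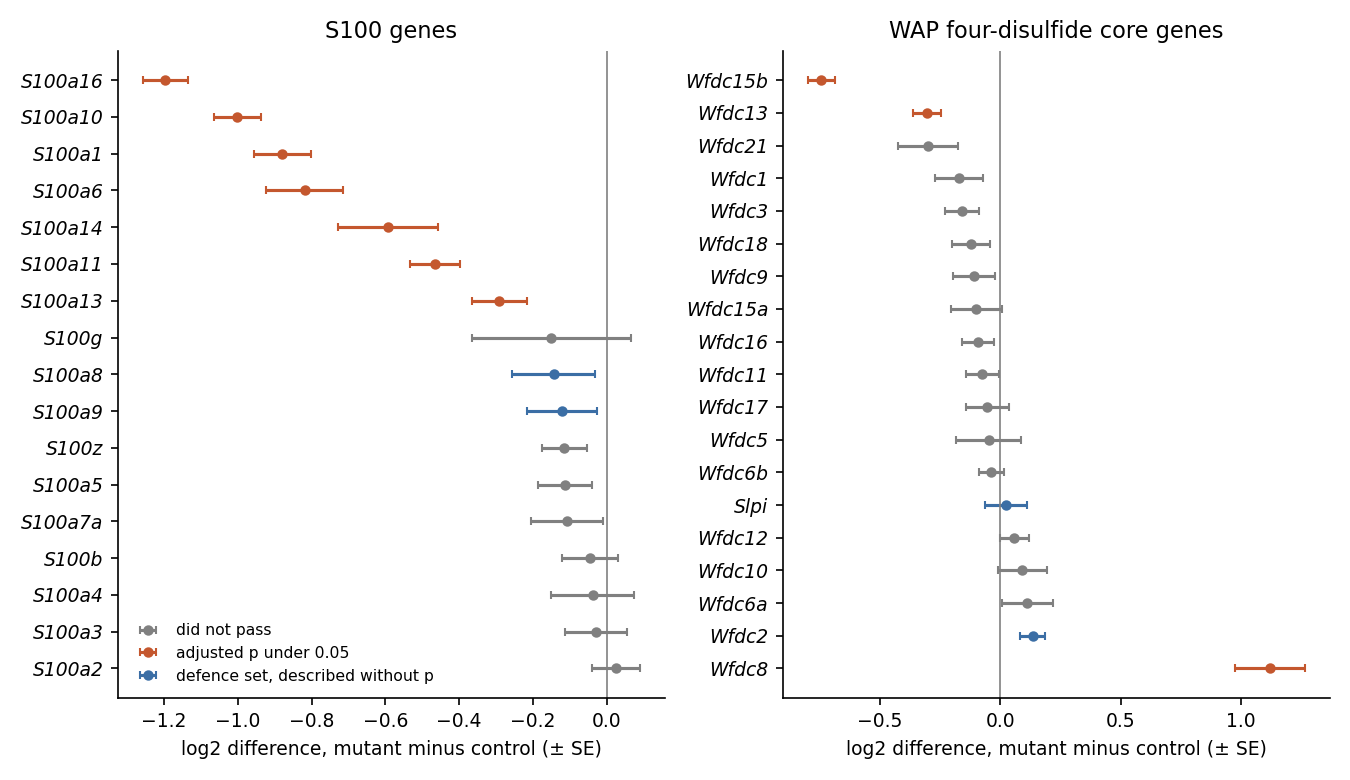
Log2 difference between Dicer mutant and control means (horizontal axis) with the standard error of the limma fit, for the S100 genes (left) and the WAP four-disulfide core genes (right). Orange marks genes past an adjusted p of 0.05, grey those that did not pass, and blue the genes of the defence set, which lie between -0.14 and 0.13 while S100a16 lies at -1.20 and Wfdc8 at 1.12.

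Of 23 receptors and adaptors that induce these proteins, 5 rose, 2 fell and 16 did not pass, and the median log2 difference was 0.03 against -0.05 for all genes. Of the 23, 16 were above the overall probe set median, and a share of 25.8% of all genes and 39.6% of such brighter genes passed, so that this count is near the background. Osmr, the oncostatin M receptor subunit, rose from 7.43 ± 0.09 to 8.24 ± 0.16 and Il17rd, an IL-17 receptor family member, from 8.51 ± 0.06 to 9.32 ± 0.09 (SD, n = 3 each; limma, adjusted p = 0.000553 and 0.000158). Il10rb, shared by the IL-10 and IL-22 receptors, rose 1.54-fold and Il1rap, the IL-1 co-receptor, 1.22-fold, whereas Irak1, a kinase downstream of the IL-1 and Toll-like receptors, fell 1.28-fold. The IL-17 receptor subunits Il17ra and Il17rc, through which IL-17 induces Lcn2, had log2 differences of 0.12 and -0.23 and did not pass.

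Of 18 NF-kB, C/EBP and STAT3 factors and their inhibitors, 2 rose, 5 fell and 11 did not pass, with a median of -0.10. Of the 18, 12 were among the brighter genes, of which 39.6% passed, so that this count too is near the background. Bcl3 and Rel, an atypical IkB protein and an NF-kB subunit, rose 1.63-fold and 1.59-fold. Nfkbia, the inhibitor of NF-kB that is also its target gene, fell from 10.19 ± 0.17 to 9.77 ± 0.11 (SD, n = 3 each; limma, adjusted p = 0.0145). Cebpb and Cebpd, C/EBP factors of the acute-phase response, fell by 0.40 and 0.31 on the log2 scale. Rela and Stat3 had log2 differences of -0.16 and 0.19 and did not pass. The falls were the less stable part, since 1 of the 18 was called lower without mutant replicate 1 and 3 without mutant replicate 2 or without mutant replicate 3.

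Of 20 transcription factors of barrier epithelia, 9 fell, 1 rose and 10 did not pass, with a median of -0.19. Of the 20, 17 were above the median of all probe sets, where 39.6% of all genes passed in either direction. Ehf, an ETS factor of epithelia, read 11.33, 11.33 and 11.28 on the control arrays and 10.55, 10.63 and 10.56 on the mutant arrays (limma, adjusted p = 0.000104). Elf5, another epithelial ETS factor, read 8.67, 8.60 and 8.35 on the control arrays and 7.66, 7.67 and 7.66 on the mutant arrays. Grhl3 and Ovol1, regulators of epidermal differentiation, fell 1.91-fold and 1.90-fold, and Pparg, a nuclear receptor active in urothelium, 1.67-fold. Elf3, an ETS factor that works with NF-kB, had a log2 difference of 0.05 and did not pass. Tfcp2l1 was the gene called higher (0.26), and it was not called without mutant replicate 1 or without mutant replicate 2, which left 0 of the 20 called higher.

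Among 53 other innate defence and acute-phase genes, 6 fell, 3 rose and 44 did not pass, with a median of -0.12. Of the 53, 6 were brighter than the overall probe set median. Of all genes 25.8% passed, 39.6% of those above that median and 11.9% of those below it. Muc20, a membrane mucin of the kidney, read 7.75, 7.64 and 7.27 on the control arrays and 6.46, 6.27 and 5.90 on the mutant arrays, a 2.53-fold fall (limma, adjusted p = 0.000851). Agr2, a disulfide isomerase needed to make mucins, fell 1.57-fold, and the chemokines Ccl20 and Cxcl1 fell 1.50-fold and 1.43-fold. Anxa1, an anti-inflammatory annexin, rose 1.52-fold. The count of lower genes was 11 without control replicate 3, and that of higher genes was 1 without mutant replicate 3.

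Among 25 binding partners of these proteins and genes of iron handling, 4 rose, 2 fell and 19 did not pass, with a median of -0.03. Of the 25, 13 were above the median of all probe sets. A share of 25.8% of all genes passed, so that this count is near the background. Lrp2 (megalin), an endocytic receptor that takes up Lcn2, read 7.85, 7.82 and 7.49 on the control arrays and 8.71, 8.81 and 8.79 on the mutant arrays, a 2.07-fold rise (limma, adjusted p = 0.000256). Slc22a17, the other receptor described for Lcn2, had a log2 difference of -0.14 and did not pass. The iron exporter Slc40a1 rose by 0.51, Aco1, which senses iron, by 0.47 and the transferrin receptor Tfrc by 0.32, whereas the ferritin heavy chain Fth1 fell by 0.27. Prtn3, a neutrophil protease, fell by 0.34. The count of lower genes was 1 without control replicate 1 and 0 without mutant replicate 3.

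**Figure D4:**
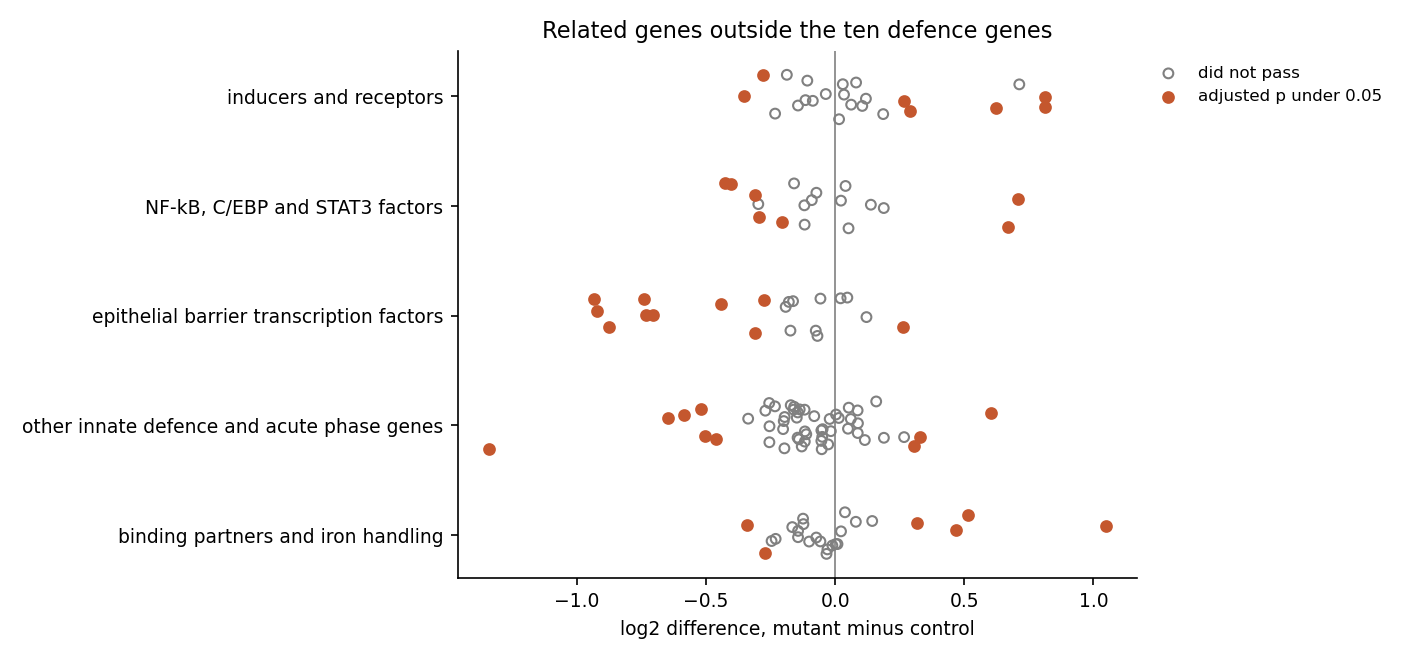
Log2 difference between Dicer mutant and control means (horizontal axis) for the genes of 5 related lists, without the 10 defence genes; filled points passed an adjusted p of 0.05 in limma and open points did not. Muc20 is farthest left at -1.34 and Lrp2 farthest right at 1.05.

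Genes with an array profile most like that of Lcn2 were sought over the 6 arrays, with each gene centred on its mean. The genotype difference was kept, so a large fall by itself made a gene close to Lcn2. The closest were Inmt, Car5b, Sprr1a, Lgi3 and Kcnh5, whose root mean square differences from Lcn2 were 0.31, 0.41, 0.46, 0.50 and 0.52 log2 units. They ranked 2, 4, 3, 6 and 5 from the lowest difference of all genes, so the likeness mainly restates their large falls. Inmt, a methyltransferase, read 8.59, 8.46 and 8.63 on the control arrays and 6.31, 6.23 and 5.85 on the mutant arrays. Sprr1a, an envelope protein of stratified epithelia, read 9.79, 9.87 and 10.22 on the control arrays and 8.15, 7.74 and 7.45 on the mutant arrays. Among the controls, Car5b was highest in replicate 1 and lowest in replicate 2 as Lcn2 was, Inmt and Lgi3 were lowest in replicate 2 and highest in replicate 3, and Sprr1a and Kcnh5 were lowest in replicate 1 and highest in replicate 3. The root mean square difference of the other 9 defence genes from Lcn2 ran from 1.25 to 1.42, which mainly restates that they lacked its fall.

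**Figure D5:**
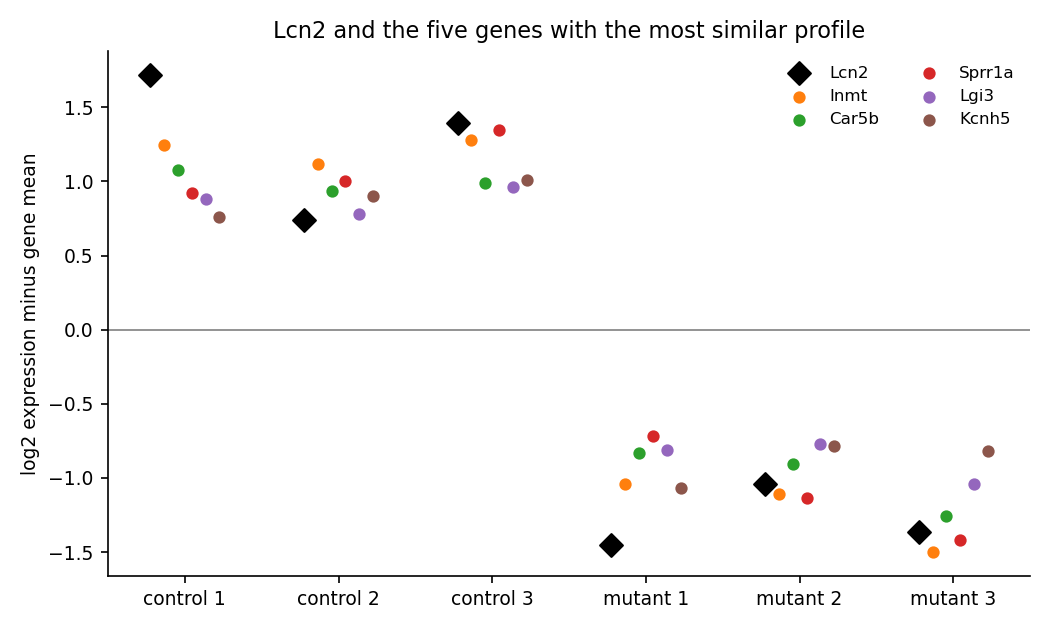
Log2 expression minus the gene's mean over all 6 arrays (vertical axis) for Lcn2 (black diamonds) and the 5 genes with the smallest root mean square difference from it, by array. All 6 genes lie above 0 on the control arrays and below 0 on the mutant arrays, which follows from their large falls. Lcn2 is lowest of the 6 in control replicate 2.

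Markers of cell types that make these proteins were read alongside. Beside the counts of markers, 13.9% of all genes were called lower and 11.8% higher. In either direction 39.6% of genes above the median of all probe sets passed and 11.9% of those below it. In bulk samples fewer cells of a type and less RNA per cell cannot be told apart. Of 13 urothelial markers, 7 were above that median. Of the 13, 8 fell, led by Sprr1a (4.53-fold), Upk1b (3.19-fold) and Sprr2f (2.86-fold), 0 rose and 5 did not pass. Those 5 were Psca (-0.46), the keratins Krt14 (-0.18), Krt5 (-0.14) and Krt20 (-0.07), and Ly6d (-0.09). The summed linear signal of all 13 was 3378 to 4607 on the control arrays and 1482 to 1840 on the mutant arrays. Control replicate 2 was the lowest control for both this sum and Lcn2, but the highest control was replicate 3 for the sum and replicate 1 for Lcn2. The part of urothelial cells in the Lcn2 difference was not tested.

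Of 15 neutrophil markers, 1 fell (Prtn3) and 14 did not pass, and their summed linear signal was 724 to 792 on the control arrays and 714 to 739 on the mutant arrays. The granule genes Elane and Mpo had log2 differences of 0.02 and -0.02. Of 18 macrophage markers, 1 fell (Ptprc, by 0.45) and 17 did not pass, with sums of 1016 to 1142 and 1013 to 1066, and Csf1r had a log2 difference of -0.09. The brightest of each, Cd177 and Cd68, had differences of -0.02 and -0.06, and Ly6g was not analysed here. None of the 15 or 18 was above the overall probe set median, and since RMA gives no value of 0, no marker is listed at 0. The summed signal of the ureteric epithelium markers was 55551 to 56423 on the control arrays and 47867 to 49469 on the mutant arrays. The brightest of them, Calb1, fell by 0.24 on the log2 scale. Of 6 cap mesenchyme markers, Six2 rose 9.78-fold, Osr1 fell 1.59-fold and 4 did not pass. Stroma (8 genes), endothelium (5) and the single erythroid marker measured had 0 past the threshold in limma, and their brightest genes Col1a1, Cdh5 and Alas2 had differences of -0.10, -0.37 and 0.00. Of 10 nephron markers, 2 rose, Lrp2 (1.05, also given above among the binding partners) and Jag1 (0.21). Slc34a1 (-0.69) and the brightest, Pax8 (-0.37), fell, and 6 did not pass.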

How the data were processed

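The authors deposited log2 expression values, 1 per probe set and array, made with RMA and the affy package per the submitters' processing notes; for versions, build and filters, the sources used here give nothing. RMA equalises the arrays and compresses changes of dim genes. The 6 array medians ran from 7.47 to 7.54, and no pair of arrays shared more than 22 identical values. The number of arrays limits the precision, and p-values measure only the spread between these samples.

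Of 23309 probe sets, 20728 had 1 gene symbol, and the one with the highest mean over the 6 arrays stood for each of 19296 genes. Genotype was the only term of a linear model (limma 3.58.1, R 4.3.3, lmFit and eBayes, Benjamini-Hochberg over all genes, threshold 0.05, two-sided). The fit was tested on simulated data of the same size. Other list genes without such a probe set were not analysed here.

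The members and lists were chosen with earlier results of these data known. In each list, up to 5 genes past the threshold with the largest difference were named, or the 2 with the smallest p. Lcn2's 5 closest profiles, Dicer1, the brightest marker of each marker list, Elane, Mpo, Ptprc and Csf1r were named as well. Upk1b, Sprr2f, Psca, Krt5, Krt14, Krt20, Ly6d, Osr1, Il17ra, Il17rc, Rela and Stat3 were named after values were seen. The same holds for Elf3, Tfcp2l1, Slc22a17, Fth1, Krt19, Aqp3, Wnt9b, Cdh1, Epcam and S100pbp. Also after values were seen, S100a7a was added to the S100 genes and the motifs and neighbouring genes were chosen. The fit was repeated with a replicate block, without each array in turn, after quantile normalization or median centring, on genes with a group mean over the median of all probe sets, on averaged probe sets per gene, and with a variance trend and robust eBayes.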

Additional observations from a re-analysis of the deposited data

How the results depend on the processing

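Under the 12 alternatives the Lcn2 difference ran from -2.84 to -2.35, on the same arrays that chose it. Across the arrays left out, the other ranges were 0.15 to 0.33 for Defb1, -0.05 to 0.07 for Ltf, -0.22 to -0.06 for Lyz2, 0.04 to 0.21 for Pigr, -0.23 to -0.04 for S100a8, -0.23 to -0.05 for S100a9, -0.22 to -0.02 for Saa3, -0.06 to 0.08 for Slpi and 0.11 to 0.15 for Wfdc2. The Wfdc2 difference was 0.17 with quantile normalization and 0.17 with median centring. The 8 dimmer genes could not be fitted with dim genes left out. Wfdc2 was called higher with median centring, with dim genes left out, and with the variance trend and robust eBayes. Defb1 was called higher without control replicate 1. Nothing is read from these calls, as the genes were picked from this contrast.

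Leaving out an array gave 1635 to 2157 genes higher and 1764 to 2973 genes lower, the fewest lower without mutant replicate 1. In the same fits the calls ran from 1 to 5 (NF-kB, C/EBP and STAT3 factors, lower), 6 to 11 and 1 to 2 (innate defence, lower and higher), 0 to 2 (binding partners and iron handling, lower) and 0 to 1 (barrier transcription factors, higher). Quantile normalization gave 6 higher innate defence genes, and 1 binding partner was lower without dim genes. The cause of the other shifts was not tested.

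The labels do not say whether same-numbered arrays were paired. Deviations of same-numbered arrays from their group means correlated at -0.19, -0.10 and -0.22, and no array correlated best with its own number. With 3 arrays per group centred on their mean, these correlations cannot show whether the arrays were paired. With the replicate block 1725 genes were higher and 1878 lower, 3 of the NF-kB, C/EBP and STAT3 factors were lower and 1 innate defence gene was higher.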

Other observations

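Of the 4 genes nearest to Lcn2 on chromosome 2, 3 fell in mutant cells. Averaged over all arrays, the 4 lay above the median of all probe sets, where 39.6% of all genes passed in either direction. With the 2 nearest measured genes on each side in the RefSeq order (GRCm38.p6), 1110008P14Rik fell by 0.80 (limma, adjusted p = 0.00323), Ptges2 by 0.36 (adjusted p = 0.0108) and Ciz1 by 0.26 (adjusted p = 0.00897), while Slc25a25 had a log2 difference of -0.12 and did not pass. Over all 10 defence genes there were 36 such neighbours outside the set, of which 6 fell and 0 rose in limma, against 13.9% and 11.8% of all genes. The count that fell is thus near the background. The other 3 that fell were S100a6 (-0.82), near S100a8, AA986860 (-0.58), near Pigr, and Saal1 (-0.21), beside Saa3. The neighbours Lyz1 of Lyz2 and Saa4 of Saa3 had differences of -0.12 and -0.08 and did not pass.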
